A study of Mus musculus with 8 samples.

Results

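The 5 genes described here, Kif21b, Hivep2, Kit, Arhgap24 and C030029H02Rik, were taken from 33696 genes because their mean levels were lower in Piezo2+ than in Piezo2- oligodendrocytes (OLs) of the mouse optic nerve (ON). They were chosen on the control libraries, so the values of that contrast are given below as a description. Their levels in other cell types, their co-detection in the same nuclei and their levels by genotype did not enter the choice. Co-detection was measured in OLs that include those of the control libraries, so it is not independent of the choice.

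Piezo2 encodes a cation channel that opens when the membrane is stretched, and OLs wrap axons of the ON with myelin. Kit is the receptor tyrosine kinase for stem cell factor (Kitl) and acts through Ras, PI3K and Src family kinases. Arhgap24 (FilGAP) switches off the small GTPase Rac and so acts on the actin cytoskeleton, Kif21b is a kinesin motor that walks on microtubules and limits their growth, and Hivep2 (Schnurri-2) is a large zinc-finger transcription factor. C030029H02Rik is a long noncoding RNA.

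Nuclei were isolated from ONs of female mice at postnatal day 120 and sequenced as 8 single-nucleus libraries, each from 6 ONs pooled over 3 mice. The 4 control libraries (replicates 1 to 4) came from Piezo2f/f mice and the 4 others (replicates 10 to 13) carry the label Olig2-cre;Piezo2f/f, so all mice had both Piezo2 alleles flanked by loxP sites on a C57BL/6J background. Olig2-cre is a knock-in that acts in the oligodendrocyte lineage and leaves 1 intact copy of Olig2. Each library is a pool, and p-values measure the spread between pools.

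The genome annotation of GRCm39 places Kif21b on the plus strand of chr1:136059098-136105763, Hivep2 on chr10:13841518-14027128, Kit on chr5:75735576-75817404, Arhgap24 on chr5:102629213-103045803 and C030029H02Rik on chr7:135869957-135933514, all on the plus strand. The first 4 are protein-coding. Arhgap24 is the longest with 417 kb. Genes annotated across these bodies lie on the minus strand, except Gm45426, which lies on the plus strand inside C030029H02Rik and was not analysed here. The overlapping gene with most UMIs in OLs, 1700013M08Rik at the start of Arhgap24, had 64 UMIs in the OLs of all 8 libraries.

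RefSeq promoter windows, from 250 bases before to 50 bases after the start of transcription, were found for 3 of the 5 genes. They are printed because these genes were lower in the same OLs, and because their base composition differs. The build is GRCm38.p6, and the windows are chr10:13966129-13966428 (Hivep2), chr5:75574737-75575036 (Kit) and chr7:136268074-136268373 (C030029H02Rik), all on the plus strand. Capitals mark matches on either strand to CTGGNAC (a loose pattern for the Myrf core), ACAANG (a loose pattern for the Sox core), CAGCTG (an E-box) and TATAAA (the TATA box). N stands for any base, so a match need not be a site that the factor binds, and binding was not tested. Kit has 2 windows in the table, of which the first is shown, and Kif21b and Arhgap24 were not matched.
Hivep2: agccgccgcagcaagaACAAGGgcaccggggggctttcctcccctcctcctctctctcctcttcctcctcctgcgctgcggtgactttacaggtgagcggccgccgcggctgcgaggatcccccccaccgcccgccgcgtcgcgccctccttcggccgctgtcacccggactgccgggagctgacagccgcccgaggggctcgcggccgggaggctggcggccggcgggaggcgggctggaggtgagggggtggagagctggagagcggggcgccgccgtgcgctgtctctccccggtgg
Kit: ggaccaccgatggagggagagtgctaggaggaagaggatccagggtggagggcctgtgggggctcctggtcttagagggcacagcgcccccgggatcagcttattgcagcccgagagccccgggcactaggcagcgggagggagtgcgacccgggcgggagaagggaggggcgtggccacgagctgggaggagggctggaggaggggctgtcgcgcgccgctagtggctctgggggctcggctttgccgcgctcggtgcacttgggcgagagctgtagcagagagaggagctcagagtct
C030029H02Rik: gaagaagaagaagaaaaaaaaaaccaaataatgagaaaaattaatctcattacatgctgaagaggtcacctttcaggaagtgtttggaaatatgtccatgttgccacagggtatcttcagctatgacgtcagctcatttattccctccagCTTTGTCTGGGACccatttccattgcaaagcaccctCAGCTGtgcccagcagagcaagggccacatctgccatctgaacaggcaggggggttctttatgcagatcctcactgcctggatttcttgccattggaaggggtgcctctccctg
The Hivep2 and Kit windows were rich in CpG, with 35 and 20 CpG dinucleotides and 75.3% and 69.0% G or C, against a median of 7 CpG and 53.0% over 32544 windows. The C030029H02Rik window held 1 CpG and 46.7% G or C. It held 1 match each to CTGGNAC (with G at N), ACAANG and the E-box, of which the first 2 lie side by side. These patterns were present in 19.2%, 41.1% and 16.4% of all windows. Hivep2 held 1 match to ACAANG (with G at N) and the Kit window held none of the 4 motifs. TATAAA was in none of the 3 windows and in 13.6% of all windows.

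The libraries held 39628926 to 56541132 UMIs (unique molecular identifiers, each standing for an RNA molecule) and 3488 to 6220 nuclei after filters, with median UMI counts of 2375 to 3313. OLs were taken as nuclei with 3 or more UMIs of St18, a transcription factor of OLs. This gave 8066 OLs in the control libraries (47.7% ± 4.89 of nuclei, SD, n = 4) and 10273 in the others (49.99% ± 5.10). Among OL genes not used by the gate, the myelin gene Mog reached 844 ± 33.5 and 963 ± 63.9 CPM (SD, n = 4) in OLs of the 2 groups, against 89.3 ± 17.1 and 131 ± 32.7 in astrocytes, where CPM are the UMIs of a gene per 1000000 UMIs of the summed nuclei. Mobp reached 1311 ± 161 and 1502 ± 142 in OLs. Libraries shared 2 to 11 barcodes per pair, at most 0.303% of the smaller library. Control replicate 3 stood apart, because the pituitary hormone genes Gh, Prl and Pomc summed to 1216 and 1771 CPM in its Piezo2+ and Piezo2- OLs, against at most 186 in the other 7 libraries. Results with this library are given without it where that changes them.

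Piezo2, counted over the whole gene, did not follow the labels in OLs. Its level was 484, 368, 349 and 431 CPM in control replicates 1 to 4 and 516, 494, 538 and 492 in replicates 10 to 13. The second group was higher in every library, with a log2 difference of 0.34 (SE 0.13, adjusted p = 0.378 by edgeR's quasi-likelihood test with Benjamini-Hochberg adjustment), and is therefore called the libraries labelled cKO. The files count UMIs over the whole gene, and whether the floxed exons are missing cannot be read from them. The paper reported a marked loss of Piezo2 signal in myelinating OLs of Olig2-cre;Piezo2f/f ONs. It used in situ hybridization with a probe for the removed exons, so its result and these counts measure different parts of the RNA.

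Levels over cell types were examined first. In the control libraries each type was compared with OLs over 11527 genes. The share of genes called lower than in OLs (adjusted p under 0.05 and a log2 difference over 0.5 in size) was 12.7% in oligodendrocyte precursor cells (OPCs), 23.9% in astrocytes, 18.2% in endothelial cells, 26.1% in fibroblasts, 27.2% in myeloid cells and 19.4% in neurons. The share called higher was 13.0%, 24.2%, 10.6%, 22.3%, 19.1% and 20.6% in the same order. The gates other than that of OLs need 3 UMIs from 2 genes of a marker list, St18 under 3 UMIs and no other list passed. T cells and mural cells were too few for the fit, and the 29 control T cell nuclei together held 30 UMIs of Hivep2 (715 CPM), 11 of Kif21b (262 CPM) and 4 of Kit (95.4 CPM). The control neuron gate was mixed, with 7114 CPM of the pituitary genes Gh, Prl and Pomc against 3298 CPM of the 4 neuron markers, and 90 of its 140 nuclei came from control replicate 3. In the libraries labelled cKO these values were 41.6 and 3860 CPM. Without replicate 3, Hivep2 and Arhgap24 were still called higher in neurons than in OLs, with log2 differences of 2.53 and 2.43.

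C030029H02Rik was lower than in OLs in 6 of 6 types, and Kif21b, Hivep2, Kit and Arhgap24 were not. Its level in OLs was 166, 132, 166 and 163 CPM in control replicates 1 to 4. Astrocytes ranged from 3.62 to 6.27 (5.30 ± 1.25, SD, n = 4), with a log2 difference of -5.01 (SE 0.29, adjusted p = 1.95e-17 by edgeR). Fibroblasts, myeloid cells and neurons held 9, 12 and 7 UMIs in all, and OPCs and endothelial cells held 2 UMIs each. No library of another type overlapped with OLs in either genotype. Empty droplets held 27.5 ± 4.11 CPM (n = 4), above the means of all 6 types.

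Hivep2 had the opposite order and was called higher than OLs in 6 of 6 types. OLs held 52.0, 60.3, 90.8 and 87.2 CPM in control replicates 1 to 4. Endothelial cells (468 ± 124, SD, n = 3), fibroblasts (464 ± 70.7, n = 4) and neurons (414 ± 159) were highest among the 7 types fitted, and their ranges overlapped. Astrocytes (305 ± 17.8) and OPCs (266 ± 12.0) followed, and myeloid cells were lowest among the other types with 156 ± 35.6, a log2 difference to OLs of 0.80 (SE 0.22, adjusted p = 0.00312 by edgeR). No library of these types overlapped with the OLs. Empty droplets held 37.9 ± 6.35 CPM of Hivep2 (n = 4). In control OLs that passed no other gate and held no Gpr17 UMI the level was 32.1 ± 1.69, under that of the empty droplets.

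Kit had its highest control means in fibroblasts and OPCs among the 7 types fitted. Control OLs held 42.6, 45.0, 42.3 and 35.3 CPM. Fibroblasts held 83.4 ± 10.2 (SD, n = 4), higher than OLs by a log2 difference of 0.75 (SE 0.22, adjusted p = 0.00371 by edgeR). OPCs held 70.01 ± 49.2, and their range of 22.2 to 132 enclosed the OLs (adjusted p = 0.366 by edgeR). Astrocytes (5.92 ± 2.84) and myeloid cells (6.40 ± 4.76) were below OLs by 3.04 and 2.96 on the log2 scale, with adjusted p of 5.67e-13 and 1.34e-06. Neurons held 26.4 ± 19.2 (18 UMIs in all) in control, with a log2 difference to OLs of -0.91 (adjusted p = 0.0725 by edgeR). It was called with the library as a block (-0.99, adjusted p = 0.035 by edgeR, with 21.0% of genes called lower), with no filter on low counts and without replicate 4. Neurons held 60.2 ± 44.3 (n = 3, 15 UMIs) in the libraries labelled cKO, where they came before OPCs (49.98 ± 27.7) and OLs (38.8 ± 4.63) in an order whose ranges overlapped. Empty droplets held 17.5 ± 3.55 CPM of Kit in control. The ligand Kitl had another distribution. Endothelial cells held 531 ± 62.1 CPM of Kitl (SD, n = 3) and OLs 11.4 ± 3.58 (n = 4), a log2 difference of 5.004 (SE 0.29, adjusted p = 2.11e-16 by edgeR), while Kit had 1 UMI in all control endothelial nuclei that entered the fit.

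Among the 7 types fitted, Arhgap24 and Kif21b were highest in OPCs and myeloid cells. For Arhgap24, OPCs held 323 ± 89.6 CPM (SD, n = 4), myeloid cells 240 ± 41.5 and neurons 217 ± 81.8, and the ranges of neighbours overlapped. OLs held 41.9, 39.4, 59.2 and 38.3 in control replicates 1 to 4, below OPCs by a log2 difference of 2.72 (SE 0.25, adjusted p = 3.57e-11 by edgeR), and did not overlap with any of these 3 types. In control OLs with no other gate and no Gpr17 UMI, Arhgap24 held 17.2 ± 3.41 CPM, under the 26.8 ± 5.12 of astrocytes, whereas all OLs held 44.7 ± 9.76. Endothelial cells held 2 UMIs of Arhgap24 in all, and were called lower than OLs with the library as a block (log2 difference -2.36, adjusted p = 0.0384 by edgeR, with 18.7% of genes called lower) and not without it (adjusted p = 0.0579). For Kif21b, myeloid cells held 124 ± 26.3 and OPCs 114 ± 26.4, against 25.8, 23.9, 27.5 and 33.8 in OLs. Both were higher than OLs, by log2 differences of 1.84 and 1.96 with adjusted p of 1.61e-08 and 1.78e-06. Fibroblasts were nearly devoid of Kif21b (13 UMIs in all, 4.58 ± 3.44 CPM).

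**Figure D1:**
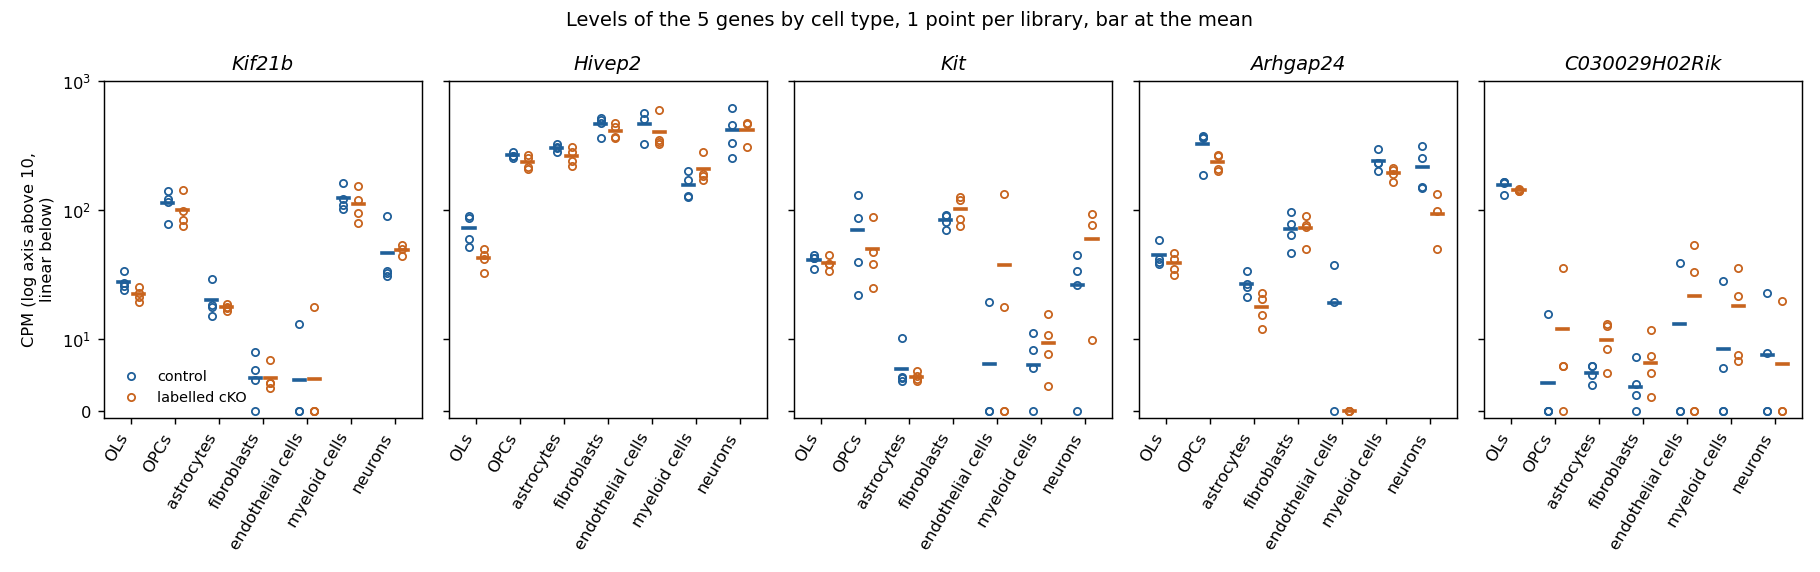
Levels of the 5 genes in CPM (log axis above 10, linear below) in 7 cell types, with 1 point per library of 10 or more nuclei of the type and a bar at the mean, for control libraries (blue) and libraries labelled cKO (orange). C030029H02Rik is high only in OLs among the 7 types plotted (156 ± 16.7 in control), Hivep2 is lowest in OLs (72.6 ± 19.3), and the means of Arhgap24 and Kif21b are highest in OPCs and myeloid cells among these types.

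Between OPCs and OLs lie committed precursors, which are marked by Gpr17, a receptor that is present while OPCs turn into OLs. Nuclei with 3 or more Gpr17 UMIs numbered 63 in control and 65 in the libraries labelled cKO. They were not tested, and the pooled values carry exact Poisson intervals that cover counting error only. Arhgap24 reached 946 CPM (854 to 1045) in control and 1068 (970 to 1174) in the libraries labelled cKO, against 31.9 (29.9 to 34.0) and 24.96 (23.3 to 26.7) in OLs with no Gpr17 UMI. It was thus above the OPC mean in both groups. Kif21b held 123 (91.9 to 162) and 126 (93.7 to 165), and Hivep2 169 (132 to 214) and 170 (132 to 215). Kit held 29.0 (15.0 to 50.7) and 12.3 (4.01 to 28.8), from 12 and 5 UMIs, against OL levels of 41.7 and 38.6. The control interval enclosed the OL level, and only that of the libraries labelled cKO lay under it. C030029H02Rik held 62.9 (41.1 to 92.2) and 46.9 (28.2 to 73.2), under its OL levels of 158.9 and 143.1. Of these nuclei, 39 and 40 also passed the St18 gate. They were 0.484% and 0.389% of all OLs but carried 23.1% and 25.6% of the Arhgap24 UMIs of OLs, whereas they carried at most 5.18% of the UMIs of any of the other 4 genes.

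Piezo2+ OLs, with 1 or more Piezo2 UMIs, were set against Piezo2- OLs of the same library. In the control libraries, which chose the 5 genes, 4730 OLs were Piezo2+ and 3336 were Piezo2-. C030029H02Rik held 115 ± 14.5 and 246 ± 35.5 CPM in the 2 classes (SD, n = 4), Kif21b 21.6 ± 4.28 and 41.3 ± 9.51, Kit 32.2 ± 4.61 and 60.01 ± 10.9, and Arhgap24 34.4 ± 6.33 and 63.7 ± 19.7. Each of these 4 genes was lower in the Piezo2+ class of 4 of 4 control libraries, as were 13.5% of the 14329 genes tested, of which 0.00698% were called in either direction. Piezo2, which defines the classes, was not left out of the genes tested. Hivep2 was lower in 3 of 4 (69.4 ± 24.1 and 76.3 ± 14.4), with log2 ratios from -0.58 to 0.41. Piezo2+ OLs were deeper in all 8 libraries, with median UMI counts of 2822.5 to 3990 against 2157 to 2863, and a deeper nucleus is more likely to show a Piezo2 UMI. The classes were also compared after thinning, below.

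The same contrast was fitted in the libraries labelled cKO, with 6915 Piezo2+ and 3358 Piezo2- OLs. It is not the contrast in which the 5 genes were named, but earlier results of all 8 libraries were known when they were taken up, so it is not wholly independent of the choice. Arhgap24 and C030029H02Rik, 2 of the 5 genes, were called lower in Piezo2+ OLs and none higher, against 0.216% of the 13906 genes called lower and 0.396% called in either direction. C030029H02Rik held 215, 200, 229 and 198 CPM in Piezo2- OLs of replicates 10 to 13 and 120, 121, 118 and 114 in Piezo2+ OLs. It was lower in Piezo2+ OLs of 4 of 4 libraries, as were 13.9% of genes. It fell by 0.84 on the log2 scale (SE 0.08, adjusted p = 8.62e-04 by edgeR). Arhgap24 held 71.2, 84.2, 75.1 and 55.0 in Piezo2- OLs and 16.2, 33.9, 23.8 and 36.0 in Piezo2+ OLs. It was also lower in 4 of 4 libraries and fell by 1.36 (SE 0.21, adjusted p = 0.0168 by edgeR). Without replicate 11 or without replicate 12 it was no longer called. With the library as a block, described below, it was still called without either replicate.

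The other 3 genes did not pass without pairing of the classes. Kif21b held 40.1, 29.1, 38.3 and 22.7 CPM in Piezo2- OLs and 14.1, 24.2, 18.4 and 18.1 in Piezo2+ OLs of replicates 10 to 13. Its log2 difference was -0.75 (SE 0.20, adjusted p = 0.207 by edgeR). Each library was lower in the Piezo2+ class, and the 2 sets overlapped. Kit held 48.4, 48.5, 53.2 and 39.4 against 34.8, 34.7, 42.7 and 31.1, lower in 4 of 4 libraries as well, with a log2 difference of -0.40 (adjusted p = 0.406 by edgeR). Hivep2 held 56.2, 50.1, 45.8 and 46.1 against 23.6, 43.2, 41.0 and 51.7, lower in 3 of 4 libraries, with a log2 difference of -0.30 (adjusted p = 0.742 by edgeR). Genes lower in Piezo2+ OLs of all 4 libraries made up 13.9% of those tested.

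Both classes come from the same nuclei suspension, and with the library as a block 3 of the 5 genes were called lower, against 0.885% of genes. Kif21b then had a log2 difference of -0.72 (adjusted p = 0.00217 by edgeR), Arhgap24 -1.34 (adjusted p = 2.08e-07) and C030029H02Rik -0.83 (adjusted p = 3.25e-11). Kit had an adjusted p of 0.00241 but its log2 difference of -0.41 was under the 0.5 needed for a call. Hivep2 had -0.27 with an adjusted p of 0.223.

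The OL gate held nuclei with UMIs of other types, and the calls of Hivep2 and Arhgap24 differed when these nuclei were left out. The astrocyte list Aqp4, Gfap, Slc1a3, Slc4a4 and Gpc5 summed to 435 to 541 CPM in Piezo2+ OLs and 459 to 616 in Piezo2- OLs of the libraries labelled cKO, with none of its 5 genes at 0. The fibroblast list summed to 172 to 313 and 175 to 273. The list of committed precursors (Gpr17, Sox6, Bcas1 and Enpp6) did not overlap between the classes of these libraries. It summed to 1018 to 1090 in Piezo2+ OLs and 1141 to 1251 in Piezo2- OLs. In the control libraries it overlapped, with 977 to 1133 and 990 to 1111. Most of the sum was Bcas1 and Enpp6, which OLs with no Gpr17 UMI also held. In the libraries labelled cKO these OLs held 545 and 437 CPM of the 2 genes. The sum alone thus does not mark committed precursors, and how many genes did not overlap between the classes was not counted. When OLs that passed another gate or held a Gpr17 UMI were left out, 7719 OLs remained in the libraries labelled cKO and 5839 in the control libraries. Hivep2 then held 16.2 ± 3.04 CPM in Piezo2+ OLs and 30.9 ± 3.35 in Piezo2- OLs (SD, n = 4), lower in 4 of 4 libraries labelled cKO by a log2 difference of -0.92 (adjusted p = 0.0236 by edgeR), and in the control libraries 24.2 ± 4.97 and 45.4 ± 2.95, lower in 4 of 4. Arhgap24 held 11.2 ± 2.80 and 21.02 ± 1.99 in the same OLs of the libraries labelled cKO, with a log2 difference of -0.86 (adjusted p = 0.102 by edgeR), and in the control libraries 13.8 ± 1.90 and 22.8 ± 7.74, lower in 3 of 4 (log2 ratios from -1.09 to 0.21). C030029H02Rik held 122 ± 3.81 and 235 ± 15.6, with a log2 difference of -0.94 (adjusted p = 1.30e-04 by edgeR). In the empty droplets of the libraries labelled cKO Hivep2 held 29.8 ± 7.28 CPM and Arhgap24 7.99 ± 1.62, so the Hivep2 level of these Piezo2+ OLs lay under that of the free RNA. Kif21b held 10.8 ± 1.04 in the empty droplets, against 12.6 ± 2.43 in these Piezo2+ OLs and 27.1 ± 8.97 in the Piezo2- OLs. The part of free RNA in these levels was not tested. In these OLs 0.0737% of 12208 genes were called lower without the block and 0.795% with it. With the block, all 5 genes were called, Kif21b with a log2 difference of -1.01, Hivep2 -0.91, Kit -0.52, Arhgap24 -0.84 and C030029H02Rik -0.92. This combination was added after the other values had been seen.

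**Figure D2:**
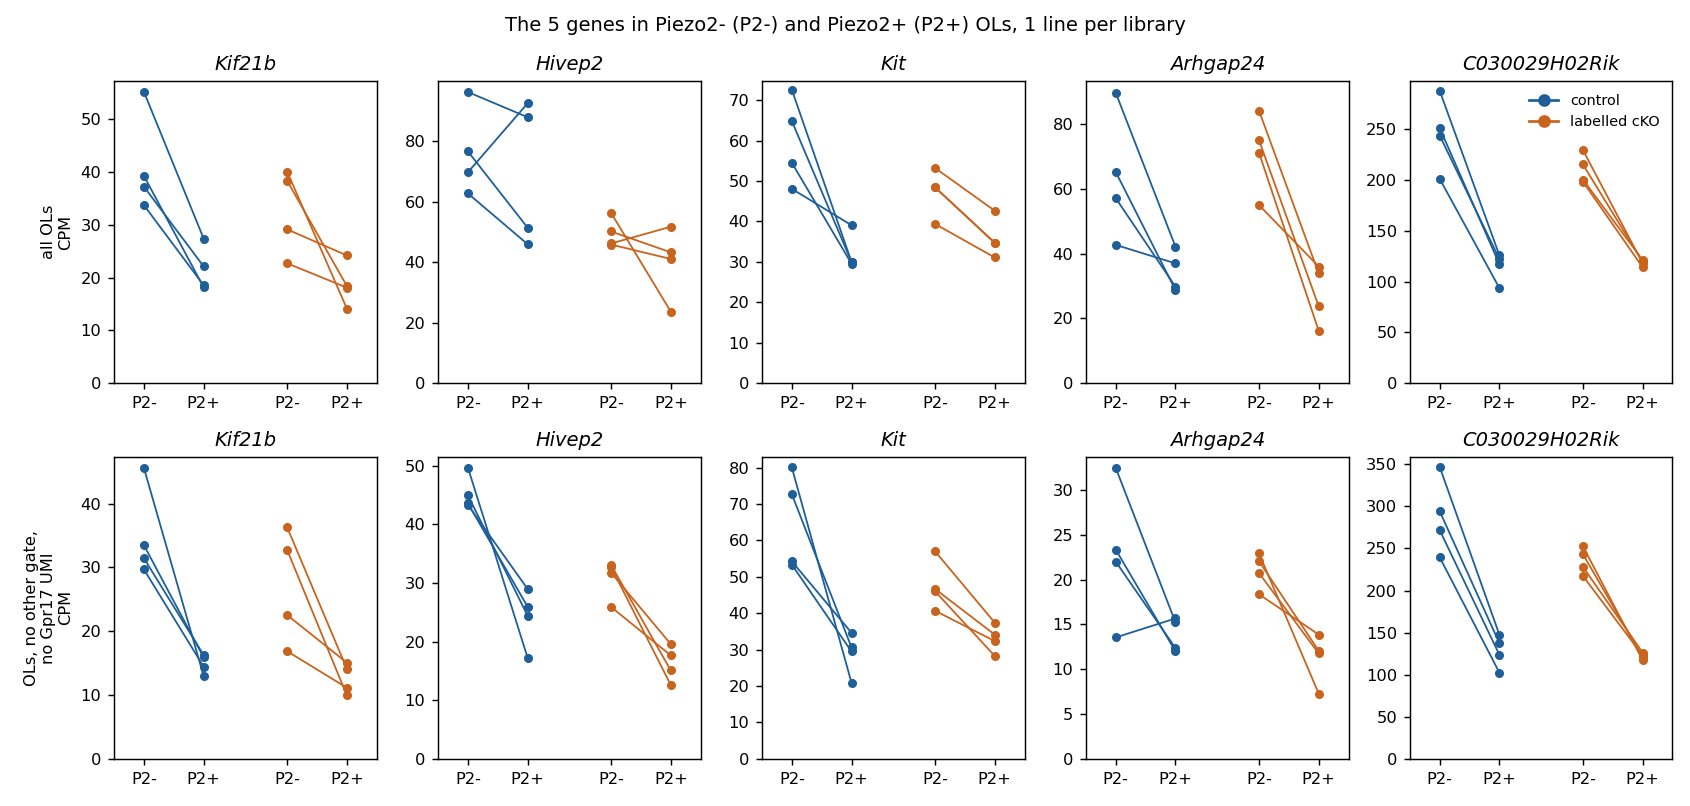
Levels in CPM in Piezo2- (P2-) and Piezo2+ (P2+) OLs, with 1 line per library for control libraries (blue) and libraries labelled cKO (orange), in all OLs (top) and in OLs with no other gate and no Gpr17 UMI (bottom). The lines of Hivep2 cross in the top row and all 8 go down in the bottom row, and those of C030029H02Rik go down in all 8 libraries in both rows.

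The level of the 5 genes was also followed over the number of Piezo2 UMIs after each OL was thinned to 1000 UMIs, which left 7939 control OLs and 10201 OLs of the libraries labelled cKO. C030029H02Rik held 211 ± 23.3 CPM (SD, n = 4) in control OLs with 0 Piezo2 UMIs, 118 ± 12.5 with 1, 99.9 ± 63.8 with 2 and 96.0 ± 82.7 with 3 or more. In the libraries labelled cKO these values were 177 ± 17.4, 121 ± 26.8, 104 ± 28.3 and 128 ± 44.1. The step lay between 0 and 1 Piezo2 UMI, and the higher classes did not separate beyond their spread. Kif21b went from 23.5 ± 4.75 to 14.3 ± 1.41 between 0 and 1 UMI in the libraries labelled cKO, and Arhgap24 from 33.7 ± 7.99 to 21.5 ± 8.27. Kit held 42.9 ± 3.11 and 32.2 ± 14.4, and Hivep2 35.1 ± 4.96 and 31.6 ± 6.07, in both cases within the larger SD. The Piezo2 classes were called again on the thinned UMIs, which gave 3753 Piezo2+ and 6448 Piezo2- OLs in the libraries labelled cKO, so depth and class changed together and their parts were not told apart. In these OLs, none of the 5 genes was called by edgeR without the block. With it, 2 of 5 were called against 1.04% of genes, Arhgap24 with a log2 difference of -0.85 (adjusted p = 8.13e-04 by edgeR) and C030029H02Rik with -0.54 (adjusted p = 8.02e-09).

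**Figure D3:**
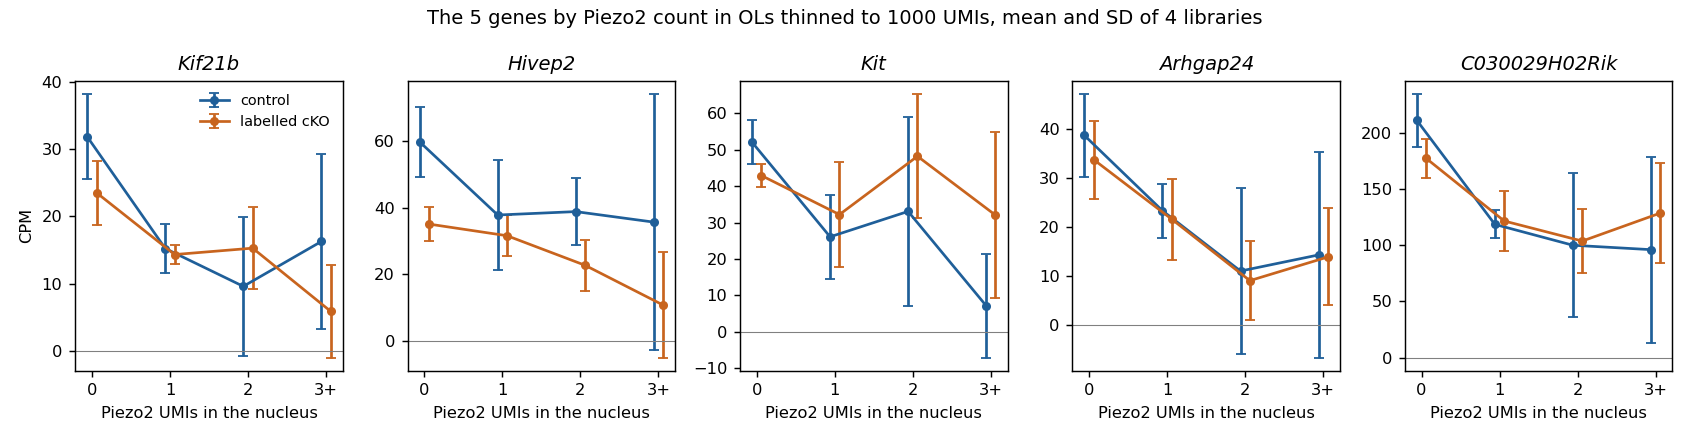
Levels in CPM of OLs thinned to 1000 UMIs, by the Piezo2 UMIs of the nucleus (0, 1, 2, 3 or more), as mean and SD of 4 control libraries (blue) and 4 libraries labelled cKO (orange). C030029H02Rik steps down between 0 and 1 Piezo2 UMI, from 211 to 118 in control and from 177 to 121 in the libraries labelled cKO, and the classes of 2 and of 3 or more have wide SDs.

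Whether the genes shared nuclei was examined in OLs thinned to 1000 UMIs, with the expected number taken within each library from the share of OLs that hold each gene. Of control OLs, 76.3% ± 2.57 (SD, n = 4) held none of the 5 genes and 20.1% ± 2.19 held 1. In the control libraries 261 OLs held 2 of the genes, against 176.9 expected if the genes were independent, and 25 held 3, against 7.76. In the libraries labelled cKO 216 held 2 against 152.1 expected, and 17 held 3 against 5.10. The excess of OLs with 2 genes was seen in 8 of 8 libraries, with ratios of 1.15 to 1.71. The 5 genes were chosen as lower in Piezo2+ control OLs, so this excess is not independent of that choice. The Piezo2 shares of control OLs that follow restate it. Piezo2 was detected in 33.8% ± 3.05 of control OLs with none of the genes, 21.6% ± 3.88 of those with 1 and 16.3% ± 3.19 of those with 2. In the libraries labelled cKO these shares were 38.7% ± 0.920, 29.8% ± 1.36 and 26.8% ± 3.26. Among the few OLs with 3 genes the share was 6.25% ± 7.22 in control and 42.7% ± 21.9 in the libraries labelled cKO.

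Of the 10 pairs, 5 were found together more often than expected (exact sign-flip permutation test over 8 libraries, two-sided, adjusted over 10 pairs). How many pairs of other genes would pass the same test was not counted. The smallest p this test allows is 0.00781. The 5 genes were chosen for a lower level in Piezo2+ OLs of the control libraries, so the test is not independent of that choice. In the libraries labelled cKO alone no pair can pass, because 4 libraries allow no p under 0.125. Kit and C030029H02Rik shared 150 OLs against 79.4 expected, with a mean log2 ratio of 0.89 ± 0.27 (SD, n = 8; exact permutation, adjusted p = 0.026), above 0 in 8 of 8 libraries. Hivep2 and Arhgap24 shared 34 against 16.03 (0.91 ± 0.38) and Kif21b and C030029H02Rik 93 against 52.9 (0.71 ± 0.31), both also in 8 of 8 libraries with the same adjusted p. Of the genes in at least 2% of thinned OLs of every library, 0.731% were above expectation in 8 of 8 with Kif21b, 2.01% with Hivep2, 2.21% with Kit, 2.16% with Arhgap24 and 3.72% with C030029H02Rik. Kif21b and Arhgap24 themselves are too rare to be among these genes, and no such share was counted for 7 of 8 libraries. Hivep2 and C030029H02Rik shared 131 against 90.1, and Kif21b and Arhgap24 19 against 9.35, each above 0 in 7 of 8 libraries, with adjusted p of 0.0391 and 0.0469 by the exact permutation test. Kif21b and Kit (30 against 12.6) and Hivep2 and Kit (49 against 21.2) had adjusted p of 0.067 and 0.0651 in the same exact test. Leaving out replicate 1, 2, 4, 10 or 13 left no pair past the correction, and 4 pairs passed without replicate 3, 11 or 12, among them the 3 that were above 0 in 8 of 8. The smallest p that 7 libraries allow is 0.0156.

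The remaining 3 pairs did not pass. Arhgap24 and C030029H02Rik shared 64 OLs against 59.1, Kit and Arhgap24 16 against 13.96, and Kif21b and Hivep2 23 against 14.5, with a mean log2 ratio of 0.35 ± 0.98 (SD, n = 8) for the last pair. Among OLs with no Piezo2 UMI before thinning, 6553 nuclei, none of the 10 pairs passed, with 86 against 55.4 for Kit and C030029H02Rik (exact permutation, n = 8, adjusted p = 0.117) and 4 against 8.85 for Kit and Arhgap24. In OLs with no other gate and no Gpr17 UMI, 3 pairs passed, all of them with C030029H02Rik, which shared nuclei with Hivep2 (95 against 46.6), Kif21b (78 against 38.1) and Kit (113 against 62.5). Hivep2 and Arhgap24 then shared 10 OLs against 4.58 (exact permutation, n = 8, adjusted p = 0.346). Pairs of rare genes rest on few nuclei, and 0.5 was added to both numbers of each ratio.

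**Figure D4:**
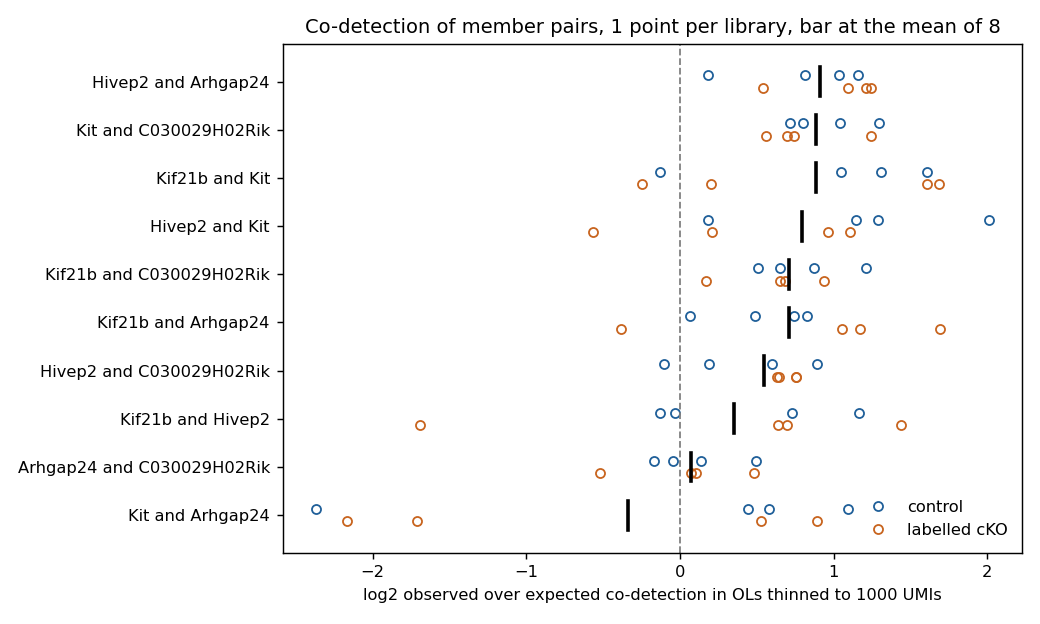
Log2 ratio of observed to expected OLs that hold both genes of a pair, in OLs thinned to 1000 UMIs, with 1 point per library for control libraries (blue) and libraries labelled cKO (orange) and a bar at the mean of 8. All 8 points lie above 0 for Hivep2 with Arhgap24, Kit with C030029H02Rik and Kif21b with C030029H02Rik, and those of Kit with Arhgap24 range from -2.37 to 1.09.

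The genes that most often shared OLs with each of the 5 were listed among those in at least 2% of thinned OLs in every library and above expectation in 8 of 8, by the median log2 ratio over 8 libraries. For Kit these were 7630403G23Rik (2.08), Kirrel3 (1.59) and Kcnma1 (1.53), and for C030029H02Rik 7630403G23Rik (1.01), 5033421B08Rik (0.95) and Slc7a15 (0.86). The noncoding RNA 7630403G23Rik thus led both lists. Among the genes found most with Arhgap24 were Dscam (2.54) and Tnr (2.04), and Kif21b was found most with Pcdh7 (1.37), Dscam (1.17) and Nrcam (1.16), which are adhesion molecules or, for Tnr, matrix. Among those found most with Hivep2 were Utrn (1.79) and Sox5 (1.76). These likenesses are descriptions over 8 libraries in all thinned OLs. They were not repeated without the OLs that held Gpr17 UMIs or passed another gate.

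Genes of OL stages were compared with the 5 in the same way, as a description. All thinned OLs entered, also those with Gpr17 UMIs or another gate, and the part of these nuclei was not tested. OLs with 3 or more Gpr17 UMIs carried 23.1% of the Arhgap24 UMIs of OLs in control and 25.6% in the libraries labelled cKO. Of 5 early genes in enough OLs, Arhgap24 was found above expectation in 8 of 8 libraries with 4, Itpr2 (median log2 ratio 1.79), Tcf7l2 (1.34), Tns3 (0.88) and Bcas1 (0.37), Kif21b with 1, Tns3 (0.54), and C030029H02Rik with 1, Bcas1 (0.13). Of 6 myelin genes, C030029H02Rik was above expectation in 8 of 8 libraries with 4, Opalin (0.57), Mal (0.17), Mog (0.04) and Mbp (0.01), and Arhgap24 was below it with 2, Mog (-0.37) and Mobp (-0.29). Kit was above with Opalin (0.68) and below with Mog (-0.10), and Hivep2 was below with Mbp (-0.0625). Of 13 genes of mature OLs, C030029H02Rik was above with 5, among them Jph4 (0.71) and Il33 (0.61), and below with 4, among them Far1 (-0.47) and Klk6 (-0.37). Kit was above with 2, Il33 (0.81) and Jph4 (0.51), and below with 5, among them Anln (-1.02), Hapln2 (-0.80) and Klk6 (-0.68). Hivep2 was below with 4, Arhgap24 with 3 and Kif21b with 2, each of them including Anln, and Kif21b was above with Il33 (0.68). The median log2 ratio over the 13 genes was -0.11 for Kif21b, -0.15 for Hivep2, -0.11 for Kit, -0.22 for Arhgap24 and -0.0415 for C030029H02Rik, beside medians over all genes examined of -0.0658, -0.0445, -0.0541, -0.0759 and -0.0106 in the same order. Of the genes in at least 2% of thinned OLs of every library, 2.00% were below expectation in 8 of 8 libraries with Kif21b, 3.44% with Hivep2, 4.25% with Kit, 2.74% with Arhgap24 and 4.35% with C030029H02Rik. Enpp6, an early gene, was below expectation in 8 of 8 libraries with Kif21b, Hivep2, Kit and C030029H02Rik, at -1.11 with Kit.

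The partners of the 5 genes were mostly not called in the Piezo2 contrast of the libraries labelled cKO. Of 20 tested genes of Kit signalling and its inhibitors, 1 was called lower and none higher by edgeR, namely Fyn, a Src family kinase of the myelinating OL, with a log2 difference of -0.98 (SE 0.14, adjusted p = 0.0107). The median of the 20 was 0.04, against -0.01 over all 13906 genes. None of 2 tested kinesin relatives of Kif21b, 2 Schnurri relatives of Hivep2 and 6 relatives and partners of Arhgap24 was called, and their medians were -0.18, 0.17 and 0.03. Kitl (0.14) and the 3 tested receptor relatives of Kit (median 0.25) were not called. Of 6 early OL genes, Gpr17 was called lower with -1.99 (SE 0.33, adjusted p = 0.025 by edgeR), and none of 7 myelin genes and of 13 mature genes was called. With the library as a block, 2 of the 6 early genes were called lower, against 0.885% of genes, and still none of the myelin and mature genes.

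Between the genotypes, the 5 genes had lower means in OLs of the libraries labelled cKO and none was called by edgeR. Of 15973 genes, 0.0501% were called in either direction and 0.0313% lower. The median log2 difference over all these genes was 0.007, so a lower mean alone is common. Hivep2 differed most. It held 52.0, 60.3, 90.8 and 87.2 CPM in control replicates 1 to 4 and 32.7, 44.9, 42.1 and 49.9 in replicates 10 to 13, and the groups did not overlap, as was so in the same direction for 4.04% of genes. The log2 difference was -0.74 (SE 0.17, adjusted p = 0.205 by edgeR), and -0.64 without control replicate 3. With DESeq2 it was called lower (adjusted p = 0.0171), as the 1 gene of the 5, against 0.468% of genes called lower. In OLs with no other gate and no Gpr17 UMI it held 32.1 ± 1.69 and 20.5 ± 2.36 (SD, n = 4), again without overlap. How many of all genes did so in these OLs was not counted. The log2 difference of Hivep2 in them was -0.66 (adjusted p = 0.0573 by edgeR). Both Hivep2 levels lie under those of the empty droplets, 37.9 ± 6.35 and 29.8 ± 7.28 CPM. The droplet levels were also lower in the libraries labelled cKO, and the part of free RNA in the difference was not tested. The summed astrocyte list was 580 CPM in control OLs and 484 in OLs of the libraries labelled cKO, the fibroblast list 377 and 268, and the neuron list 86.6 and 39.9, and their part in the Hivep2 difference over all OLs was not tested.

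The other 4 genes differed less. Kif21b had a log2 difference of -0.29 (SE 0.12, adjusted p = 0.428 by edgeR), with 27.8 ± 4.29 in control and 22.3 ± 2.47 CPM in the libraries labelled cKO (SD, n = 4). In OLs with no other gate and no Gpr17 UMI it held 22.1 ± 1.24 and 16.6 ± 2.60, without overlap, as for Hivep2. The share of all genes that did so in these OLs was not counted. Arhgap24 had a log2 difference of -0.19 in all OLs, and -0.05 without control replicate 3. C030029H02Rik had -0.12 and Kit -0.07. In the interaction test of edgeR, none of 14793 genes was called for a Piezo2 contrast that differed between the genotypes, and 231 had an unadjusted p under 0.05. The control side of this test is the contrast that chose the 5 genes, so it is not read for them.

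As shares of OLs at 1000 UMIs, C030029H02Rik was detected in 14.6% ± 1.45 of control OLs and 12.7% ± 1.21 of OLs of the libraries labelled cKO (SD, n = 4; exact permutation test, two-sided, p = 0.143), against 0.608% and 1.05% of astrocytes. Hivep2 was detected in 4.57% ± 0.909 and 2.88% ± 0.325 (p = 0.0286 by the same exact test), against 24.8% and 20.8% of astrocytes thinned alike. A draw of 1000 UMIs from the empty droplets would hold Hivep2 in 3.72% ± 0.611 and 2.93% ± 0.707 of cases (n = 4). Such a draw stands for free RNA alone, not for the free RNA within a nucleus. The OL shares of Hivep2 were near these values, and the part of free RNA in them was not tested. Hivep2 was the 1 gene of the 5 whose shares did not overlap, as was so in the same direction for 3.27% of the 9847 genes with a mean share of at least 1%. Kit was detected in 3.39% ± 0.313 and 3.11% ± 0.312, Arhgap24 in 2.60% ± 0.513 and 2.16% ± 0.346, and Kif21b in 2.53% ± 0.361 and 1.89% ± 0.276. The smallest p that 4 against 4 libraries allow is 0.0286, which passes an adjustment over all genes only if most genes reach it. After adjustment over the 9847 genes none of the 5, and no other gene, passed (adjusted p = 0.522 for Hivep2 by the exact permutation test). Before thinning, the OL shares of Arhgap24 were 8.43% and 6.40%. In OLs with no other gate and no Gpr17 UMI, 3 of 5 were lower in the libraries labelled cKO without overlap, against 2.93% of 9564 genes. Kif21b was in 2.56% ± 0.164 and 1.60% ± 0.424, Hivep2 in 2.82% ± 0.117 and 2.10% ± 0.519, under its shares from empty droplets, and Arhgap24 in 1.68% ± 0.389 and 1.09% ± 0.260 (SD, n = 4; exact permutation test, p = 0.0286 and p = 0.541 after adjustment over the 9564 genes for each). Draws from the empty droplets would hold Kif21b in 1.21% and 1.07% and Arhgap24 in 1.14% and 0.795% of cases, and the part of free RNA in these shares was not tested.

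**Figure D5:**
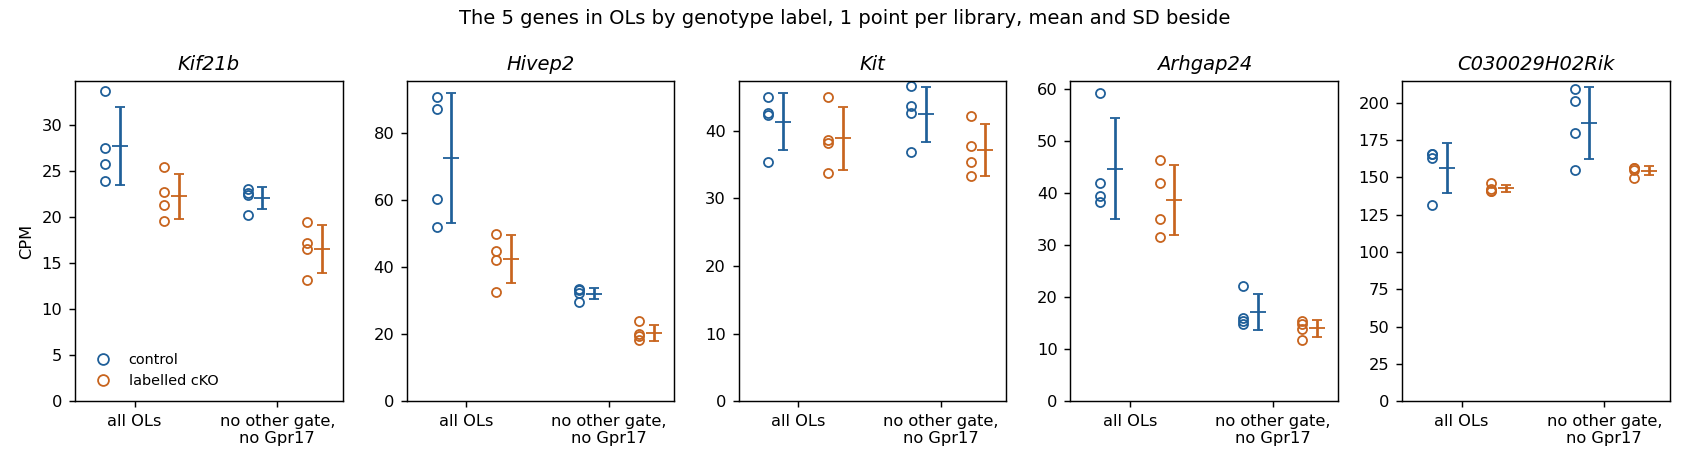
Levels in CPM in OLs of 4 control libraries (blue) and 4 libraries labelled cKO (orange), with 1 point per library and the mean and SD beside, for all OLs (left pair) and for OLs with no other gate and no Gpr17 UMI (right pair). The Hivep2 points do not overlap between the groups in either pair (72.6 ± 19.3 and 42.4 ± 7.22 in all OLs). Those of Kif21b do not overlap in the right pair, and the Kit points overlap in both. In all OLs 4.04% of genes were lower in the libraries labelled cKO without overlap, and for the right pair this share was not counted.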

How the data were processed

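Single-nucleus libraries of mouse ON, 4 control and 4 labelled Olig2-cre;Piezo2f/f, were analysed from raw matrices of UMI counts, which the authors deposited unfiltered after alignment to GRCm39 (Cell Ranger 7.0.0, per the submitters' processing notes). The study removed ambient RNA and doublets with its own tools before clustering, and those tools were not run again. The main counts were not corrected for ambient RNA, and doublets were scored anew as given below. Here, nuclei were called from a knee (8000 expected nuclei, the 99th percentile divided by 10) and from a test of droplets with 500 or more UMIs against the ambient profile of barcode ranks 45000 to 90000 (10000 simulations, FDR 0.01). Nuclei with over 5% mitochondrial UMIs, under 200 genes or counts over 5 median absolute deviations from the median were dropped, as were doublets scored against simulated ones at 0.8% per 1000 nuclei. Depth per library and its spread are in the results. Intervals cover counting error only.

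OLs had 3 or more St18 UMIs, and other types 3 or more UMIs from 2 or more genes of 1 marker list only. Counts were summed per library and class (10 or more nuclei, 1000 or more UMIs) and tested with edgeR 4.0.16 (R 4.3.3), quasi-likelihood, TMM, with Benjamini-Hochberg adjustment over all genes tested. A call needed an adjusted p under 0.05 and a log2 difference over 0.5 in size. DESeq2 1.42.0 was an alternative. The edgeR script was tested on simulated data. Both Piezo2 classes of a library come from 1 suspension, and their deviations from the class means correlated at 0.282 to 0.580 over 14018 genes in all 8 libraries, so the library pairs them. The fit without the block is given first, and the blocked value is given where it changes a call. For co-detection and shares, each OL was thinned to 1000 UMIs, and differences were tested by exact permutation, adjusted over 10 pairs for co-detection and, in place of the 5 genes set in the design, over all genes with a mean share of at least 1% for shares (Python 3.11.15, scipy 1.17.1).

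The genes named are the 5 members, Piezo2, lists for Kit signalling, relatives of the members and OL stages, and the 3 genes most often found with each member, of which some are not reported here. Members and lists were chosen with earlier results of these data known. Sequences are RefSeq promoter windows. Columns of other samples numbered 0.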

Additional observations from a re-analysis of the deposited data

Results flagged for a closer look

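Of 99 groups of 4 libraries examined, 8 held a library that stood apart from the other 3 by Dixon's criterion, where chance gives about 1 in 20. In OLs, C030029H02Rik was at 131.5 CPM in control replicate 2 and at 163 to 166 in the other control libraries. In OPCs of control replicate 3, Arhgap24 was at 188.7 CPM against 362 to 374 in the others, and C030029H02Rik at 15.7 (2 UMIs) against 0. Kit in astrocytes was at 10.2 CPM (16 UMIs) in the same replicate and at 4.15 to 4.78 in the others. Kif21b in neurons was at 90.5 CPM (6 UMIs in 14 nuclei) in control replicate 4, against 30.7 to 33.9. Among endothelial cells of the libraries labelled cKO, Hivep2 was at 601 CPM (18 UMIs in 17 nuclei) in replicate 12 against 324 to 349, Kit at 134 (4 UMIs) in the same replicate against 0 to 17.9, and Kif21b at 17.9 (2 UMIs) in replicate 13 against 0.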

How the results depend on the processing

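Counts of called genes moved with the processing more than the values of the 5 genes did, and the cause was not tested. For Piezo2+ against Piezo2- OLs of the libraries labelled cKO, 55 genes were called, 115 with no filter on low counts, 106 with DESeq2 and 14 after thinning. With the library as a block, which pairs the classes, 266 were called, 135 after thinning and 216 in OLs with no other gate and no Gpr17 UMI (added after seeing the data). Leaving out 1 replicate gave 4 (without replicate 11) to 54 without the block and, with it, 341, 207, 215 and 253 without replicates 10, 11, 12 and 13. In the control libraries 1 gene was called, 28 with no filter, 45 with DESeq2, 10 after thinning, 5 with 5 or more St18 UMIs, 45 in OLs with no other gate and no Gpr17 UMI and 9 with every barcode of 500 or more UMIs. Piezo2, which defines the classes, was not left out of the genes tested in either group. The block gave 181, 157 after thinning and 311 in the restricted OLs, and leaving out 1 replicate gave 1 to 2 without the block and, with it, 155, 148, 132 and 221 without replicates 1, 2, 3 and 4. Between genotypes, 8 genes were called, 31 with no filter, 123 with DESeq2, 16 after thinning, 19 in the restricted OLs, 4 with every barcode of 500 or more UMIs and 3 to 14 without 1 replicate. For the interaction, 0 were called by edgeR with and without the block (231 at an unadjusted p under 0.05 without it), and 0 to 1 without 1 replicate.

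Against OLs, thinning reduced the calls from 2967 to 1853 in OPCs, 5549 to 3304 in astrocytes, 3316 to 1874 in endothelial cells, 5579 to 3109 in fibroblasts, 5347 to 3153 in myeloid cells and 4612 to 2275 in neurons, and no filter gave 9220 in astrocytes. The block changed none of these counts by over 1.5 times. Of the 10 pairs, 5 passed at 1000 UMIs, 9 at 2000 UMIs, 10 without thinning, 3 in the restricted OLs, 0 in OLs with no Piezo2 UMI, and 0 in the control libraries alone or the libraries labelled cKO alone, where 4 libraries allow no p under 0.125. Leaving out 1 replicate gave 0 to 4. Of the shares by genotype, 0 of 5 passed after adjustment over all genes under every setting run, and no other gene did, and 0 to 0 without 1 replicate. The smallest p of 4 against 4 libraries, 0.0286, passes this adjustment only if most genes reach it. These counts of 0 therefore follow from the design and show no stability.

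Directions turned only for values that were not called, with 1 exception, Kif21b and Arhgap24 together (-0.0813 with 5 or more St18 UMIs and -0.0383 in OLs with no Piezo2 UMI). The log2 difference of Hivep2 between Piezo2+ and Piezo2- OLs was 0.15 with every barcode of 500 or more UMIs. Kit turned against OLs in thinned OPCs (-0.42) and in neurons of the libraries labelled cKO (0.34). Kit and Arhgap24 together had 0.25 at 2000 UMIs, 0.85 without thinning and 0.0437 in the restricted OLs, Kif21b and Hivep2 -0.0319 in the restricted OLs, and Kif21b and Kit -0.00923 and Arhgap24 and C030029H02Rik -0.0823 in OLs with no Piezo2 UMI. Of the other values of single genes and pairs, 710 kept direction and call, 63 lost a call, 31 gained one and 10 moved by over the spread. At this depth a pair of genes each in under 5% of thinned OLs shared at most 49 nuclei, which limits what co-detection can show.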
